A study of Mus musculus with 3 samples.

Results

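The cells described here are the cones of the P6 mouse retina, found as 79 of 29084 cells that had 1000 or more UMIs (unique molecular identifiers, each standing for a captured transcript) and at most 15% mitochondrial UMIs. They were selected on measured values. The UMIs of *Opn1sw*, *Arr3*, *Gnat2*, *Pde6c* and *Pde6h* had to sum to at least 8 per 10000, with at least 2 of the 5 genes detected. The rod factors *Nrl* and *Nr2e3* had to sum to under 5 per 10000, and so did the endothelial trio *Cdh5*, *Pecam1* and *Egfl7* and the microglial trio *Cx3cr1*, *C1qa* and *Csf1r*. The levels of these genes in the members are therefore a description and support nothing.

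Single-cell RNA sequencing was carried out on retinas at postnatal day 6, after beads against CD31 and CD11b had been used to enrich ECs and microglia, so that photoreceptors were carried along and not collected for. There were 3 libraries, 1 per genotype, all of C57BL/6 mice, each made from the pooled retinas of 5 mice of both sexes from a litter. One was labelled WT, and its mice were not littermates of the knockouts. One was labelled *Tspan12* KO, a germline knockout in which every cell, cones included, carries the allele. One was labelled *Ctnnb1* cKO (*Ctnnb1* loxp/loxp; *Pdgfb*-iCreER), with tamoxifen given daily for 3 days from P1. *Pdgfb*-iCreER acts in ECs, so cones of this library were not targeted and differ from WT cones only in the retina around them and in every way in which the litters and libraries differ. With 1 library per genotype no test between genotypes was possible, and each interval given here covers counting error alone, at 95%.

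Cones are the photoreceptors of daylight and colour vision. Light absorbed by a cone opsin activates transducin and the cone phosphodiesterase, cyclic GMP falls and cation channels close, while arrestin and guanylate cyclase activators bring the cell back to rest. Mouse cones carry a short-wave opsin, which appears first, and a middle-wave opsin, which comes later and depends on the thyroid hormone receptor *Thrb*. Cones and rods arise from the same *Otx2* and *Crx* expressing precursors, and *Nrl* with *Nr2e3* directs such a precursor to the rod fate.

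The WT library held 20 cones of 9378 cells (0.213%, exact binomial interval 0.130 to 0.329%), the *Tspan12* KO library 52 of 11585 (0.449%, 0.335 to 0.588%) and the *Ctnnb1* cKO library 7 of 8121 (0.0862%, 0.0347 to 0.178%). Because the beads set how many neurons were carried along, cones were also counted against rods, found by a gate of the same form on 5 rod genes, among them *Nrl*, *Nr2e3*, *Gnat1* and *Pde6b*. There were 0.546 cones per 100 rods in WT (0.333 to 0.845), 0.967 in *Tspan12* KO (0.721 to 1.27) and 0.740 in the *Ctnnb1* cKO (0.297 to 1.53). The 3 intervals overlapped one another. The 2 lower shares of all cells lay in libraries with fewer rods (3662 in WT and 946 in the *Ctnnb1* cKO, against 5379 in *Tspan12* KO), and the median depth of filtered cells was 5258, 4494 and 3106 UMIs in the order WT, *Tspan12* KO, *Ctnnb1* cKO.

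**Figure D1:**
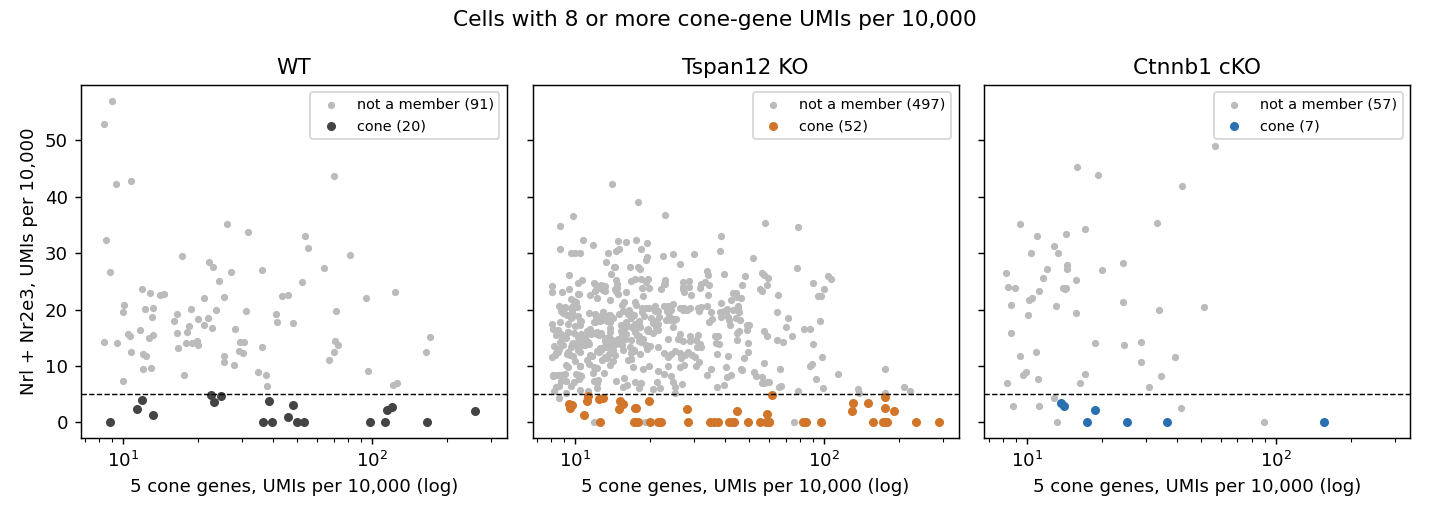
Every cell with the 5 cone genes at 8 or more UMIs per 10000, by their summed level (horizontal log axis) and by *Nrl* plus *Nr2e3* per 10000 (vertical axis, dashed line at the limit of 5), in a panel per library. The 20 WT, 52 *Tspan12* KO and 7 *Ctnnb1* cKO cones (coloured) lie below the line, most of the other cells (grey) lie above it, and the few grey cells below it carry vascular or microglial genes.

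Most of the cells with cone genes were left out by the rod limit. The cone gene step alone passed 724 cells, 111 in WT, 549 in *Tspan12* KO and 64 in the *Ctnnb1* cKO, and 635 of them (87.7%) had *Nrl* plus *Nr2e3* at 5 per 10000 or more. A further 10 cells failed on vascular or microglial genes alone. The cells with rod factors that were free of vascular and microglial genes were deep, with median UMIs of 24419 in WT, 26046 in *Tspan12* KO and 7250 in the *Ctnnb1* cKO, against 4478.5, 2962 and 2932 in the cones. Their rod factors stood at a median of 17.7, 16.5 and 23.6 per 10000 beside cone genes at 22, 17.3 and 14.3. The share of them among the top doublet scores was 9.89% in WT, 15.4% in *Tspan12* KO and 6.98% in the *Ctnnb1* cKO. Counting them as cones gives 3.03 per 100 rods in WT (2.49 to 3.66), 9.76 in *Tspan12* KO (8.91 to 10.7) and 5.29 in the *Ctnnb1* cKO (3.89 to 7.03). Whether these cells are doublets, precursors or cells with free rod RNA was not tested.

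The regions just before the starts of 4 cone genes are shown from RefSeq (build GRCm38.p6). *Opn1sw*, *Arr3* and *Gnat2* are gate genes, so their being high together was set by the selection, while *Guca1a* was not in the gate. Each of the 4 carries the letters marked below, and *Pde6h*, a gate gene without them, is not shown. Each is the 250 bases upstream of the start, 5′ to 3′ on the gene's strand. Capitals mark TAATC or its reverse complement GATTA, the core letters of sites for the photoreceptor factors OTX2 and CRX, searched on both strands.
*Opn1sw*, chr6:29380514-29380763 (minus strand): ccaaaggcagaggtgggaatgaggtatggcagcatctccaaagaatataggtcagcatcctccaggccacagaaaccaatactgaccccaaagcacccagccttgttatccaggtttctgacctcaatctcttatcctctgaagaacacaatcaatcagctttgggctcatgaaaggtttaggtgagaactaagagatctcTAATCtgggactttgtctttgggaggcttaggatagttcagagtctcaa
*Arr3*, chrX:100605247-100605496 (plus strand): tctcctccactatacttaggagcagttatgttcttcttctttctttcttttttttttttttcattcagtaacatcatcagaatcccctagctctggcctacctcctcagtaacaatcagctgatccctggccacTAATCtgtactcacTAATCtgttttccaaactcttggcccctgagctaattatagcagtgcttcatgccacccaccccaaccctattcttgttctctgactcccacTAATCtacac
*Gnat2*, chr3:108092816-108093065 (plus strand): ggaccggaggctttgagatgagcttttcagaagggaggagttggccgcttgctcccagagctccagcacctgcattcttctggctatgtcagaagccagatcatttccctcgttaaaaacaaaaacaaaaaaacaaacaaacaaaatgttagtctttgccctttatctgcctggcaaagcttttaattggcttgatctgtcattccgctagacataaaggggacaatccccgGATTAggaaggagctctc
*Guca1a*, chr17:47400607-47400856 (minus strand): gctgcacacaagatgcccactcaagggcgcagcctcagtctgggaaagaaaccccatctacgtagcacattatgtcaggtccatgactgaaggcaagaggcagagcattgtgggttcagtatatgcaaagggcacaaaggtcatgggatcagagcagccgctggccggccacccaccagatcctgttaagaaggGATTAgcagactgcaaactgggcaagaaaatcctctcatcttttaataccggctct
The nearest match began 49 bases before the start in *Opn1sw*, 10 in *Arr3*, 18 in *Gnat2* and 56 in *Guca1a*, and *Arr3* held 3. Among the 10 of the 15 cone genes used here that the reference holds, 6 carried TAATC in at least 1 such region, beside 22.3% of 27025 genes. The longer TAATCC, which contains TAATC, was carried by 3 of the 10, beside 7.21%. *Pde6h*, *Opn1mw*, *Cnga3* and *Ccdc136* held neither. A match is a description of letters and not evidence of binding.

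The short-wave opsin *Opn1sw* had 310 UMIs in WT cones (1554 CPM, the UMIs summed over the cones of a library and scaled to a common total, 1386 to 1737). It stood at 1038 CPM in *Tspan12* KO (417 UMIs) and at 791 in *Ctnnb1* cKO (18 UMIs, 469 to 1250). Rods of the same libraries had 33.0, 48.4 and 48.1 CPM. *Pde6h*, the inhibitory subunit of the cone phosphodiesterase, stood at 2221, 2044 and 703 CPM against 17.1, 77.2 and 12.5 in rods. Cone arrestin *Arr3* stood at 231, 279 and 483 CPM, the cone transducin subunit *Gnat2* at 221, 177 and 352, and the catalytic subunit *Pde6c* at 185, 189 and 220. In *Ctnnb1* cKO cones the last 3 rested on 11, 8 and 5 UMIs.

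**Figure D2:**
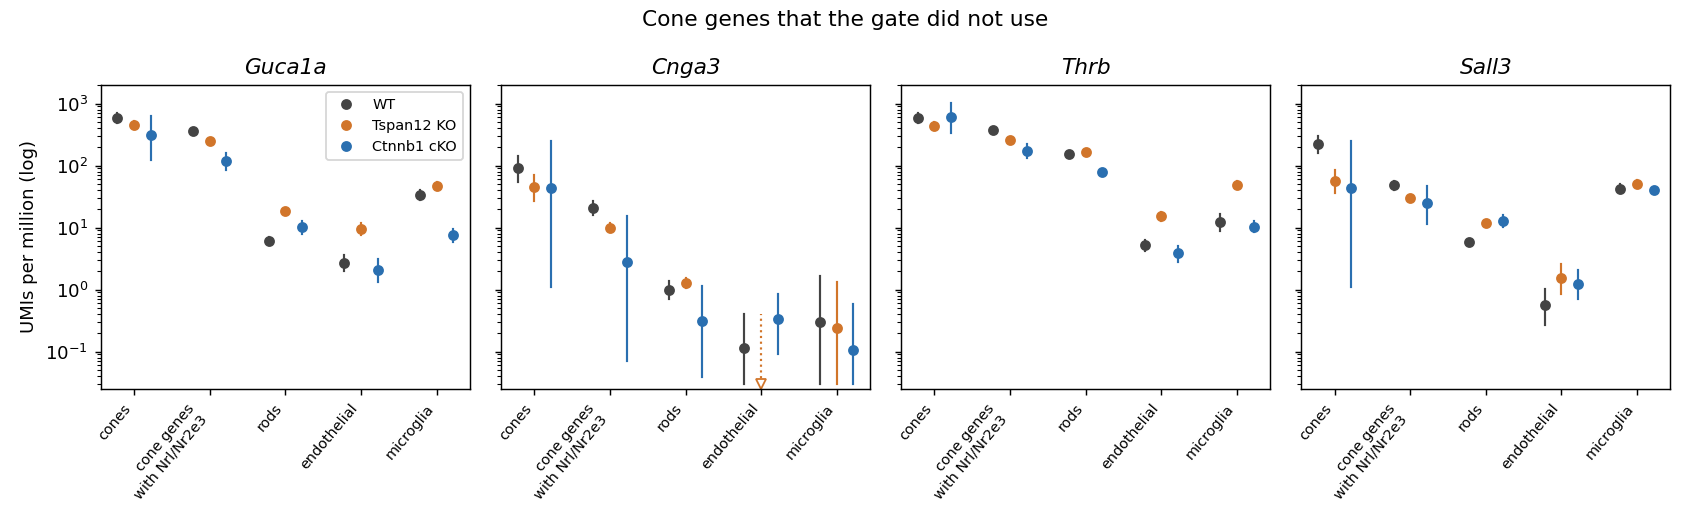
CPM (log axis) of *Guca1a*, *Cnga3*, *Thrb* and *Sall3* in cones, in cells with cone genes and *Nrl* or *Nr2e3*, and in rods, ECs and microglia, with a colour per library and bars for exact Poisson intervals of 95% (an open triangle marks a count of 0). Cones stand above rods for every gene in all 3 libraries, with wide bars for *Cnga3* and *Sall3* in the *Ctnnb1* cKO, while *Sall3* in microglia reaches the level of *Tspan12* KO cones.

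Cone genes that the gate did not use check the name. *Guca1a*, the activator of guanylate cyclase, was at 586 CPM in WT cones (117 UMIs, 485 to 703), 448 in *Tspan12* KO (180 UMIs, 385 to 518) and 308 in the *Ctnnb1* cKO (7 UMIs, 124 to 634). Rods were at 6.10, 18.8 and 10.1 CPM, ECs at 2.71, 9.45 and 2.08 and microglia at 33.6, 47.3 and 7.46. *Cnga3*, the cone channel subunit, was at 90.2, 44.8 and 43.9 CPM against at most 1.28 in rods, although the *Ctnnb1* cKO value is a single UMI. *Thrb* was at 597, 441 and 615 CPM against 153, 166 and 78.5 in rods. *Sall3*, a zinc finger factor of cones and some interneurons, was at 221, 57.2 and 43.9 CPM against 5.80, 11.7 and 12.7 in rods, and against 42.5, 51.2 and 40.9 in microglia, so in the 2 knockout libraries its level does not separate cones from microglia. With cells thinned to 1000 UMIs, *Guca1a* was detected in 20, 30.8 and 14.3% of cones, against 0.191, 1.36 and 0.634% of rods, 0.360, 2.20 and 0.197% of ECs and 3.68, 4.17 and 0.789% of microglia. The cells with cone genes that the rod limit left out were much closer. There *Guca1a* was at 362 CPM in WT and 245 in *Tspan12* KO, and was detected in 33.0 and 24.9% after thinning. *Cnga3* was lower there than in cones, at 20.7 and 9.89 CPM. *Thrb* was detected in 25, 32.7 and 28.6% of thinned cones and in 11, 15.1 and 6.03% of thinned rods.

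Other genes of the cone cascade were also well detected in rods at this age. *Gnb3*, the cone transducin beta subunit, stood at 1043, 859 and 879 CPM in cones and at 472, 410 and 267 in rods, 2-fold or more higher in cones in all 3 libraries. *Cngb3*, the second cone channel subunit, stood at 1043, 794 and 264 CPM against 457, 300 and 199. *Gngt2*, the cone transducin gamma subunit, stood at 1724, 1603 and 3955 CPM against 1281, 1021 and 1470. *Rxrg*, the retinoid receptor, was nearly level, at 55.1, 44.8 and 43.9 CPM in cones against 47.0, 37.0 and 32.0 in rods. Among the genes that the gate did not use, the label of cones therefore rests on *Guca1a*, *Cnga3* and *Thrb*.

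The middle-wave opsin, which the gate did not use, was rarely seen in the members. *Opn1mw* had 2 UMIs in all 79 cells, both in a single WT cone, and none in *Tspan12* KO or *Ctnnb1* cKO cones, where the floor of 3 counts per library is 7.47 and 132 CPM. *Opn1sw* is a gate gene, so its presence was favoured by the selection, and 12 of the 79 cones had no UMI of it. With every cell thinned to 1000 UMIs, *Opn1sw* was detected in 65.0% of WT cones, 59.6% of *Tspan12* KO cones and 57.1% of *Ctnnb1* cKO cones. Without thinning the shares were 80.0, 86.5 and 85.7%. The thinned shares in rods were 2.89, 3.27 and 3.91%, in ECs 0.541, 2.20 and 0.493% and in microglia 1.23, 2.41 and 0.552%. Median depths before thinning were 17608, 18875 and 4299 UMIs in ECs and 9780.5, 8000 and 3111 in microglia.

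Markers of other cell classes were also detected. The summed rod markers stood at 1499 CPM in WT cones, 1583 in *Tspan12* KO and 1670 in the *Ctnnb1* cKO, against 4588, 4508 and 5069 in rods. The bipolar list stood at 466, 291 and 264 CPM against 166, 321 and 275 in rods, and *Trpm1* and *Gng13*, which mark ON bipolar cells, were at 0 in the cones of every library. The Müller glia list stood at 1073, 1212 and 1758 CPM against 862, 979 and 1481 in rods, with *Aqp4* at 0 in the cones of every library. The endothelial list stood at 286, 254 and 483 CPM against 174, 165 and 351 in rods, with 6, 4 and 3 of its 6 genes detected in cones, and the gate limited 3 of them. The progenitor list stood at 90.2 CPM in WT cones, 495 in *Tspan12* KO and 659 in the *Ctnnb1* cKO (18, 199 and 15 UMIs), against 175, 234 and 265 in rods. The part these markers play in the values below was not tested.

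The members just inside the lower limit could be set beside the cells just outside it. In WT, 3 cones lay at 8 to under 12 per 10000 and 20 further cells at 4 to under 8 that met the rod, vascular and microglial limits. A UMI of *Guca1a*, *Cnga3*, *Thrb* or *Sall3* was present in 2 of the 3 (66.7%) and in 4 of the 20 (20%). In *Tspan12* KO it was present in 5 of 6 inside (83.3%) and in 26 of 106 outside (24.5%), and in *Ctnnb1* cKO no cone lay just inside and 1 of 6 cells outside had it. The cells outside were shallow, with median UMIs of 2419, 2225.5 and 2262, against 2531 inside in WT and 18356 inside in *Tspan12* KO. Nearly all cells outside had under 4 UMIs of the gate genes. Among the members, 2 WT cones and 9 *Tspan12* KO cones were called on 2 or 3 UMIs.

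**Figure D3:**
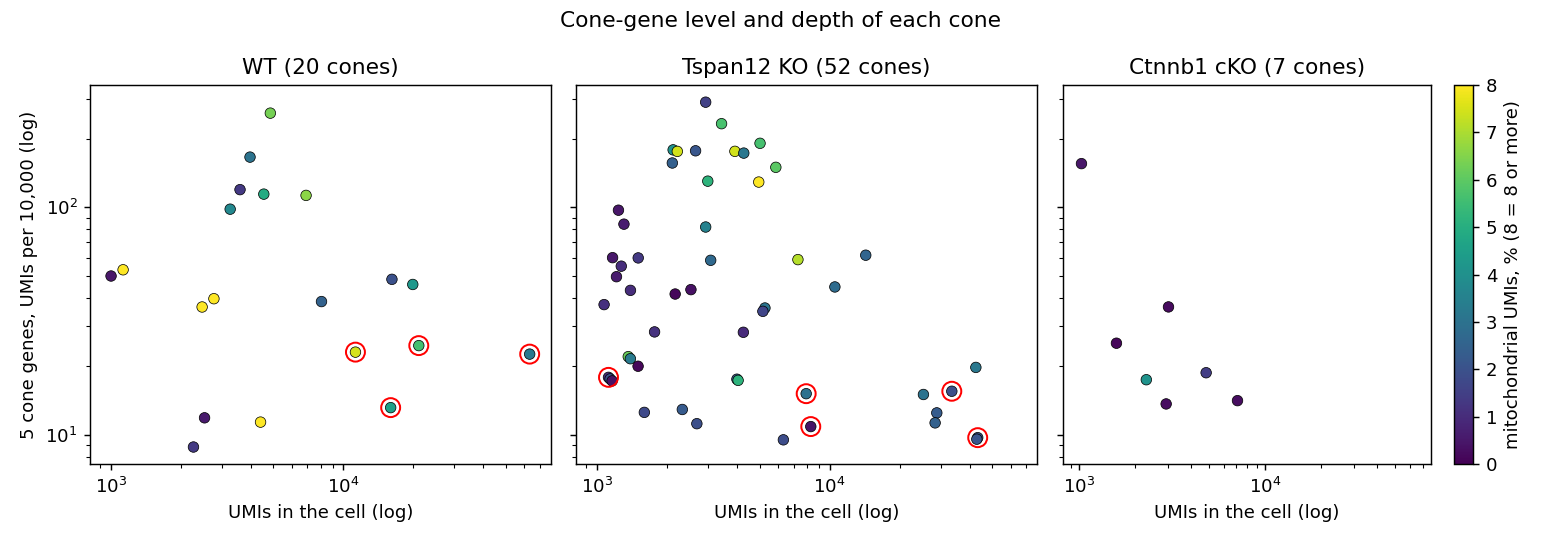
Each cone as a point, by its UMIs (horizontal log axis) and the 5 gate genes per 10000 UMIs (vertical log axis), in a panel per library, with colour for the mitochondrial share in percent and red rings for cells among the top doublet scores. The deepest cells lie low on the vertical axis, and the 7 *Ctnnb1* cKO cones all lie below 10000 UMIs.

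The cones varied widely among themselves. The gate genes ran from 8.82 to 260 per 10000 UMIs in WT (median 42.7), from 9.48 to 290 in *Tspan12* KO (median 39.4) and from 13.6 to 156 in *Ctnnb1* cKO (median 18.7). All 5 gate genes were detected in 7 WT cones and 17 *Tspan12* KO cones and in no *Ctnnb1* cKO cone. *Guca1a*, which the gate did not use, followed this range. It averaged 22.6 per 10000 over the 5 WT cones with gate genes at 100 or more and 0.443 over the 7 with under 30, and 22 over 12 against 1.1 over 23 *Tspan12* KO cones. *Gngt2* went the same way, at 40.9 against 14.4 in WT and 50 against 9.74 in *Tspan12* KO. *Thrb* differed little between the same cells, at 8.12 against 8.80 and 11.1 against 7.62, and so did *Cngb3*, at 16.3 against 11.9 and 14.9 against 10.7. In the cones between, with gate genes at 30 to 99, *Cngb3* was higher, at 23.0 in WT and 27.1 in *Tspan12* KO. *Thrb* was at 5.79 and 9.11 there. These are means over cells that share a library, and were not tested.

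Proliferation genes were found among the cones with low gate genes. *Top2a* or *Mki67*, which mark dividing cells, had a UMI in 10 of the 23 *Tspan12* KO cones with gate genes under 30 per 10000 and in 1 of the 29 others. In WT the numbers were 3 of 7 and 2 of 13, and in *Ctnnb1* cKO 2 of 5 and 0 of 2. Cells with low gate genes were deeper in WT and *Tspan12* KO, with median UMIs of 11276 and 4041 against 4551 and 3211.5 in those at 100 or more. Scaled to depth, *Top2a* averaged 2.11 per 10000 in *Tspan12* KO cones under 30, and 0 at 30 to 99 and at 100 or more. In WT it averaged 0.0677 under 30 and 0.155 at 30 to 99, on 1 UMI each. The part of depth in these numbers was not tested.

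Depth was uneven. In WT 6 cones and in *Tspan12* KO 9 cones had 10000 UMIs or more, and these held 74.0% and 67.1% of all cone UMIs, with gate genes at a median of 23.8 and 15 per 10000. No *Ctnnb1* cKO cone was as deep. Among the top doublet scores of the libraries were 4 WT cones (20%), 5 *Tspan12* KO cones (9.62%) and 0 *Ctnnb1* cKO cones. Over all filtered cells the shares were 7.95, 13.4 and 7.77%, in the same order. All 9 of these cones had gate genes under 30 per 10000. Cones below that level supplied 60.6% of the summed counts for WT, 73.6% for *Tspan12* KO and 82.2% for the *Ctnnb1* cKO. The summed CPM of cones therefore rest mostly on members with low gate genes. No cone barcode was shared between libraries, while 21 to 37 barcodes of all cells were shared by a pair.

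A single WT cell weighed on the WT sum. The deepest WT cone had 63279 UMIs, 31.7% of the WT cone total, with 9771 genes detected. Its gate genes stood at 22.6 and its rod factors at 4.90 per 10000, just under the rod limit, and it was among the top doublet scores. It held all 11 UMIs of *Isl1*, a factor of ON bipolar cells, in WT cones. Values without this cell are given below for the named genes and list counts that it changes.

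Mitochondrial content set apart another group. Under 1% of UMIs were mitochondrial in 2 WT, 11 *Tspan12* KO and 5 *Ctnnb1* cKO cones. In *Tspan12* KO these 11 had a median of 1305 UMIs and averaged 37.1 per 10000 for *Cngb3*, 17.0 for *Thrb* and 369 for the nuclear RNA *Malat1*, against 11.6, 6.73 and 158 in the other 41. *Pde6h* went the other way, at 8.37 against 41.6, and *Gngt2* at 8.60 against 26.2. In the *Ctnnb1* cKO library a share under 1% was usual in every class, with a median of 0.388% over all filtered cells, 0.577% in rods, 0.385% in ECs and 0.384% in microglia. In its 5 such cones *Malat1* averaged 542, *Cngb3* 1.35 and *Gngt2* 51.8 per 10000. Whether these are nuclei was not tested.

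Cones were next set against rods of the same library, which shows what else the selected cells share. Of 16922 genes with at least 50 UMIs, 69 were 2-fold or more higher in cones in all 3 libraries (0.408%) and 91 were 2-fold or more lower (0.538%), on the scale of log2 of CPM plus 5. Of these, 64 higher and 87 lower genes were not used by either gate. The genes chosen for the gate head this list by construction. Because *Ctnnb1* cKO cones had only 22755 UMIs, so that 1 UMI is 43.9 CPM, 72 of the 91 lower genes had no UMI there, and a count of 0 is no measure of how far they were below rods.

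**Figure D4:**
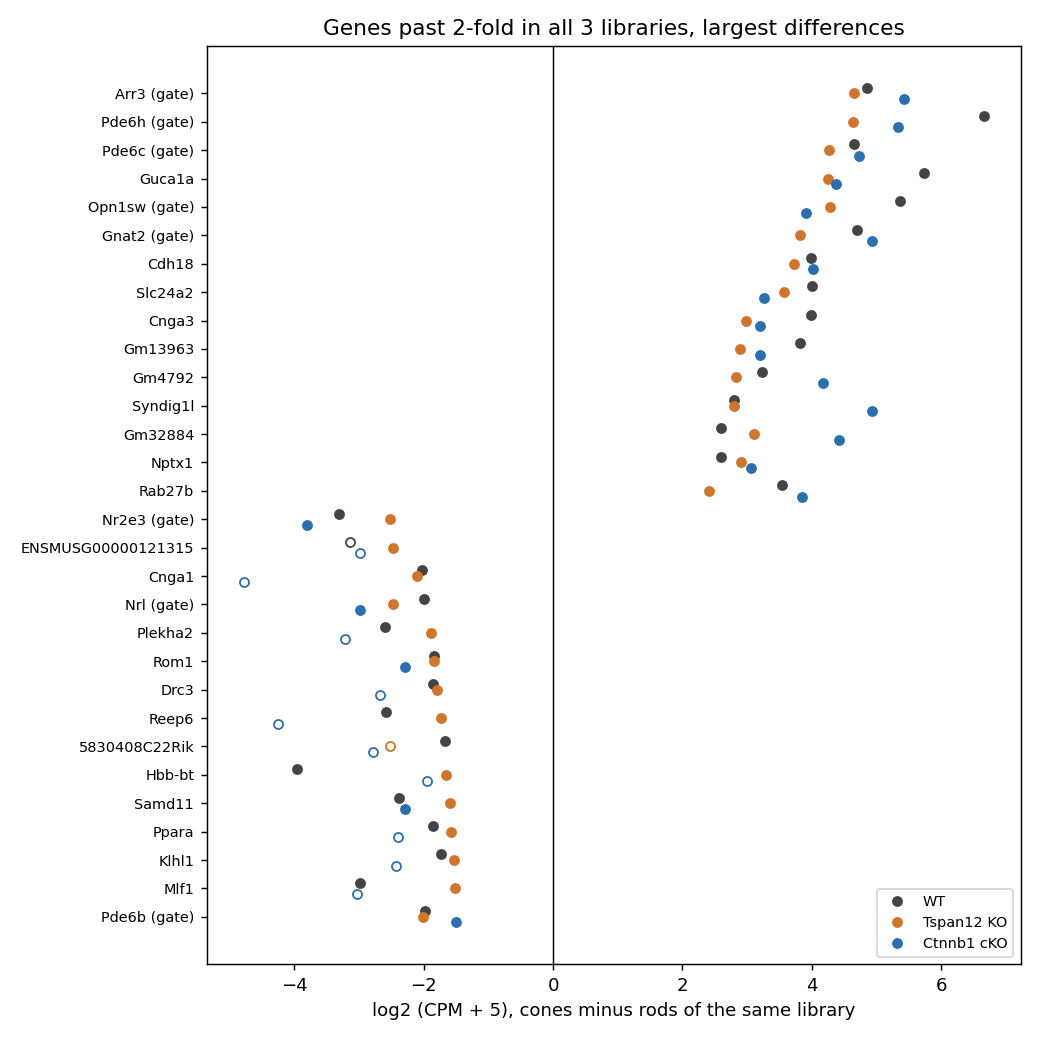
Difference between cones and rods of the same library (log2 of CPM plus 5) of the 15 highest and 15 lowest genes, with a colour per library and open points where the cones had no UMI. Gate genes, *Guca1a*, *Cdh18* and *Slc24a2* lie above 3 in all 3 libraries, and 10 of the 15 lowest genes have an open point for the *Ctnnb1* cKO.

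Among the highest genes outside the gate were further cone transduction genes. *Guca1a* was higher by 5.74 (log2) in WT, 4.25 in *Tspan12* KO and 4.37 in the *Ctnnb1* cKO. *Slc24a2*, the sodium, calcium and potassium exchanger of cones, was higher by 4.0, 3.57 and 3.26, on 161 cone UMIs, and *Cnga3* by 3.99, 2.99 and 3.20. *Rcvrn*, the calcium sensor recoverin, was higher by 3.57, 1.94 and 2.78. *Aipl1*, the chaperone of phosphodiesterase, was higher by 3.25, 2.03 and 1.97. Of 19 measured genes of the cone transduction list 6 were higher and 3 were lower (*Gucy2f*, *Kcnv2* and *Pdc*).

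Genes less tied to phototransduction stood beside them. The adhesion gene *Cdh18* was higher by 3.99, 3.72 and 4.02 on 348 cone UMIs, at 627, 540 and 264 CPM against 34.7, 36.4 and 11.6 in rods. *Nptx1*, a neuronal pentraxin of synapses, was higher by 2.59, 2.91 and 3.06 on 9, 28 and 2 UMIs. The vesicle GTPase *Rab27b* was higher by 3.54, 2.41 and 3.85 on 18, 18 and 2 UMIs, and *Syndig1l* by 2.80, 2.79 and 4.93 on 7, 18 and 5 UMIs. *Gm4792*, *Gm13963* and *Gm32884*, which carry no functional name, were among the same 15. Hexokinase 2 (*Hk2*) was the only higher gene of 28 in the hypoxia and glycolysis list.

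Of 23 photoreceptor fate factors, *Thrb* and *Sall3* were higher and *Samd11*, a Polycomb partner of rods, was lower. *Thrb* was higher by 1.93, 1.38 and 2.89, and *Sall3* by 4.38, 1.90 and 1.47. The factors common to both photoreceptors were lower by less than 2-fold in WT and *Tspan12* KO cones, *Otx2* at -0.47 and -0.44 and *Crx* at -0.66 and -0.45. In the *Ctnnb1* cKO library, on 10 and 4 cone UMIs, they stood at -1.15 and -1.58.

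Rod genes stood lower in cones, in part because the gates used some of them, *Nrl*, *Nr2e3* and *Pde6b* included. Of 15 measured, 0 were higher and 9 were lower, with list medians of -1.59, -1.73 and -1.49 beside medians over all genes of -0.15, -0.04 and -0.46. *Nr2e3* and *Nrl*, which the gate limited, stood at -3.30, -2.52 and -3.80 and at -1.99, -2.47 and -2.97. *Cnga1*, the rod channel subunit, was at 25.1 and 27.4 CPM in WT and *Tspan12* KO cones against 117 and 134 in rods. *Reep6*, which rods use to traffic membrane proteins, was at 5.01 and 17.4 CPM against 54.9 and 69.5, and *Pde6b* stood at -1.98, -2.01 and -1.49. *Rom1*, a rim protein of the discs of both photoreceptors, stood at 321, 309 and 220 CPM against 1160.1, 1115 and 1093 in rods.

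Of 23 ribbon synapse genes 0 were past 2-fold in all 3 libraries, and 5 of them had no UMI in *Ctnnb1* cKO cones. With 0.408% of all genes higher and 0.538% lower, a count of 0 in a list this short is near that share. Of 23 outer segment genes 2 were lower (*Rom1* and *Rp1*). Of 18 genes of Norrin and β-catenin signalling 0 passed, which is again near that share, and 11 had no UMI in *Ctnnb1* cKO cones. Of 14 genes of thyroid hormone signalling *Thrb* was higher and *Klf9* was lower. Haemoglobin summed to 40.1, 39.8 and 87.9 CPM in cones against 811, 150 and 208 in rods, and *Hbb-bt* was among the 15 lowest genes, and the part of free erythrocyte RNA in this was not tested.

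The genotype comparisons ask what the loss of *Tspan12*, which helps Norrin signal through *Fzd4* and *Lrp5*, or of endothelial β-catenin leaves in the cones. The targeted genes could not check the labels in these cells. *Tspan12* had 1, 3 and 0 UMIs in cones of WT, *Tspan12* KO and *Ctnnb1* cKO, and *Ctnnb1* had 34, 59 and 1. In ECs *Tspan12* was at 94.4, 83.2 and 40.0 CPM and *Ctnnb1* at 515, 577 and 444 CPM, so the level of *Tspan12* does not mark the library labelled *Tspan12* KO as lacking it. Which exons were removed is not given in the sources used here, and reads outside them would remain. Directions below are those between the libraries as labelled. Ligand and receptors were near the floor in cones, with *Ndp* at 1, 3 and 1 UMIs, *Fzd4* at 3, 2 and 0 and *Lrp5* at 3, 7 and 0.

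Between cones labelled *Tspan12* KO and WT, 2766 genes had at least 50 UMIs over the pair. Of these, 88 were 2-fold or more higher (3.18%) and 58 were 2-fold or more lower (2.1%), and the median over all of them was 0.03 (log2). The interval lay wholly above 0 for 311 genes and wholly below 0 for 255. Among the cone genes outside the gate, *Gngt2* differed by -0.10 (-0.30 to 0.09), *Gnb3* by -0.28 (-0.53 to -0.02), *Guca1a* by -0.38 (-0.73 to -0.04), *Cngb3* by -0.39 (-0.65 to -0.13) and *Thrb* by -0.43 (-0.78 to -0.09). Without the deepest WT cone the same genes stood at -0.47, -0.70, -0.75, -0.79 and -0.69. The sum of the gate genes was held at 8 per 10000 or more in every member, so their values are a description, with *Pde6h* at -0.12, *Pde6c* at 0.03, *Arr3* at 0.27, *Gnat2* at -0.31 and *Opn1sw* at -0.58. *Aipl1* stood at 451 CPM in WT (90 UMIs) and 169 in *Tspan12* KO (68 UMIs), a difference of -1.39 (-1.89 to -0.94) that was -1.75 without the deepest WT cone and -0.19 in rods.

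In the rods of the same 2 libraries the gate genes and *Guca1a* were higher in *Tspan12* KO, and so they were in ECs and microglia. *Pde6h* was at 4.01 CPM in WT ECs and 20.9 in *Tspan12* KO ECs, and at 13.3 and 81.3 in microglia. *Pde6h* was higher in *Tspan12* KO rods by 2.17, *Guca1a* by 1.63, *Gnat2* by 1.08 and *Arr3* by 1.0, as log2 ratios of CPM without the added 5. The median of the 5 gate genes on that scale was 1.0 in rods. In cones, with 5 added, it was -0.12. The *Tspan12* KO library also held more cells with cone and rod genes together, 473 against 91 in WT. Rods were chosen with the cone genes under 8 per 10000, and whether free cone RNA differs between the libraries was not tested.

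**Figure D5:**
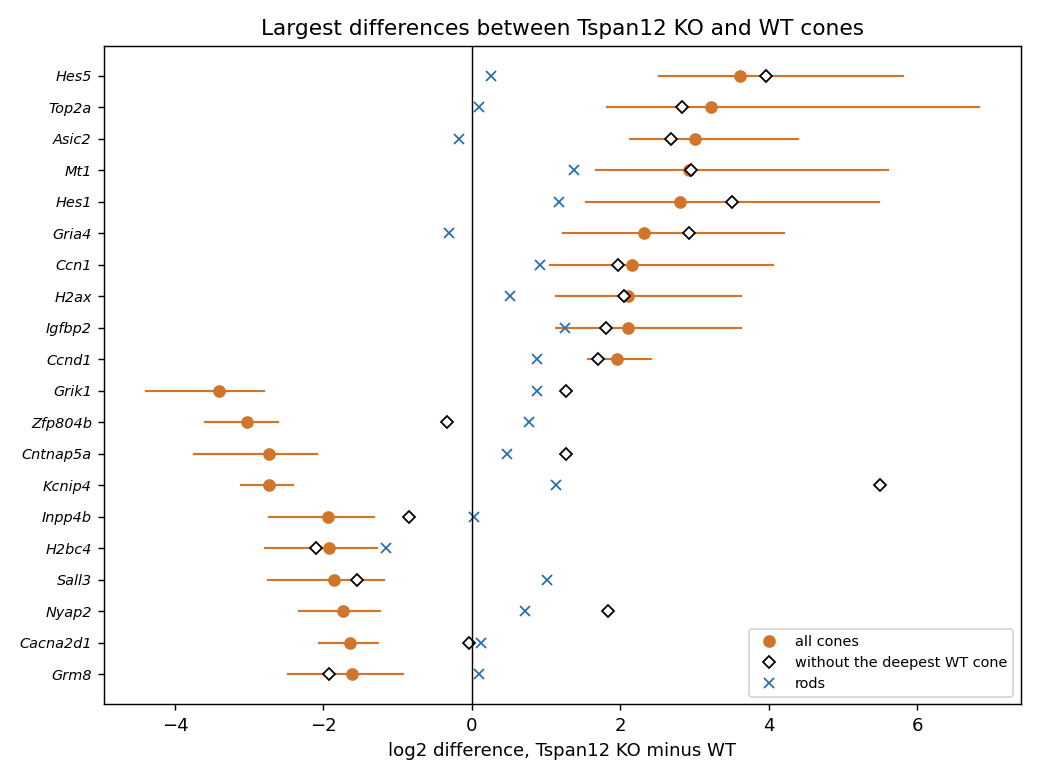
Difference between *Tspan12* KO and WT (log2 of CPM plus 5) of the 10 highest and 10 lowest genes in cones, with 95% counting intervals (filled), without the deepest WT cone (open diamonds) and in rods (crosses). The intervals and the rod values are log2 ratios of CPM without the added 5. The 10 higher genes keep their direction, while *Grik1*, *Cntnap5a*, *Kcnip4* and *Nyap2* change sign when the 1 cell is left out, *Kcnip4* against a WT count of 0.

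*Hes5*, *Hes1*, *Ccnd1*, *Top2a* and *H2ax* were among the 10 genes highest in *Tspan12* KO cones. *Hes5*, a target of Notch signalling, had 121 UMIs in 14 of 52 *Tspan12* KO cones and 4 UMIs in 3 of 20 WT cones, a difference of 3.61 (2.52 to 5.81). It differed by 0.26 in rods, and by 0.44 as a mean over cells. In *Tspan12* KO the mean over cells was below the summed level, at 131 against 301 CPM, and 34.7% of the UMIs lay in 1 cell. In WT the mean over cells was above the summed level, at 95.7 CPM on the 4 UMIs. *Hes1*, of the same family, had 54 and 3 UMIs (2.80, 1.54 to 5.48) and differed by 1.17 in rods. Cyclin D1 (*Ccnd1*), the cyclin of retinal progenitors, stood at 1060 CPM in *Tspan12* KO (426 UMIs in 23 cells) and 271 in WT (54 UMIs in 10 cells), a difference of 1.95 (1.56 to 2.41) against 0.88 in rods. *Top2a* had 54 and 2 UMIs (3.21, 1.82 to 6.83) and *H2ax* 67 and 7 (2.10, 1.13 to 3.62).

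The other 5 of the 10 highest were of mixed function. The acid-sensing channel *Asic2* had 143 and 8 UMIs (3.0) and the glutamate receptor subunit *Gria4* had 58 and 5 (2.31), with 48.3% and 50% of the *Tspan12* KO UMIs in 1 cell each. Metallothionein 1 (*Mt1*) had 59 and 3 UMIs (2.92) and *Igfbp2* 67 and 7 (2.10), and these were also higher in rods, by 1.38 and 1.25. *Ccn1* had 52 and 5 UMIs (2.16) and differed by 0.92 in rods. All 10 stayed past 2-fold without the deepest WT cone. Other settings changed some of them. With *Nrl* and *Nr2e3* both at 0, *H2ax* stood at -0.31 and *Ccnd1* at -0.32. With gate genes at 16 per 10000 and 3 of 5 detected, *Gria4* stood at -0.14. As a mean over cells *Ccnd1* differed by 0.96. When only cones with gate genes at 30 per 10000 or more and under 10000 UMIs were compared, *Top2a* had 1 UMI in WT and 0 in *Tspan12* KO, too few to compare, so its difference comes from the other cones.

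The genes lower in *Tspan12* KO cones rested largely on the deepest WT cone. *Kcnip4*, a modulator of potassium channels, had 298 UMIs in WT and all of them in that cell. It also held 97 of the 99 WT UMIs of the kainate receptor subunit *Grik1* and 60 of the 62 of *Cntnap5a*. *Kcnip4* differed by -2.73 with the cell, and without it WT cones had none of its UMIs against 89 in *Tspan12* KO. With and without the cell *Grik1* differed by -3.41 and 1.27, *Cntnap5a* by -2.74 and 1.27 and *Nyap2* by -1.73 and 1.83. *Zfp804b*, at -3.03, stood at -0.34 without it. Of the 10 lowest genes 3 stayed past 2-fold without it, *H2bc4*, *Sall3* and *Grm8*.

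*Sall3* was one of those. It had 44 UMIs in 15 of 20 WT cones, 20 of them in the deepest, and 23 UMIs in 15 of 52 *Tspan12* KO cones, which is 221 against 57.2 CPM and a difference of -1.86 (-2.74 to -1.19). It stood at -1.54 without the deepest WT cone, at -1.32 as a mean over cells and at 1.01 in rods. *H2bc4*, a histone gene, had 48 and 24 UMIs (-1.92, -2.78 to -1.27) and was lower in rods as well, at -1.16. *Grm8*, a metabotropic glutamate receptor, had 40 and 25 UMIs (-1.61, -2.47 to -0.93) and differed by 0.09 in rods.

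Few listed genes passed 2-fold, beside 3.18% higher and 2.1% lower of all measured genes, and in short lists a count of 0 or 1 is near that share. Of 12 measured genes of cone transduction 0 were higher and 1 was lower (*Aipl1*), with a median of -0.22. Of 15 fate factors 0 were higher and 2 were lower, *Sall3* and *Lhx4*, and of 15 ribbon synapse genes 1 was lower, the vesicle protein *Syp* (-1.12). None of the measured genes of the hypoxia, thyroid hormone, heat shock, apoptosis, outer segment, rod and nuclear respiratory lists passed in either direction. Of 8 immediate early genes *Jun* was higher (1.37, 0.87 to 1.95), with a list median of 0.87 in cones and 0.52 in rods. Of 10 genes encoded in mitochondria *mt-Nd2* was lower, with a list median of -0.74 in cones and -0.41 in rods. Without the deepest WT cone the counts of the lists changed. Fate factors had 0 lower, with *Lhx4* at -0.77 and *Sall3* under the minimum of 50 UMIs, the cone transduction, ribbon synapse and mitochondrial lists had 2 lower each, the outer segment list had 1 lower, the thyroid hormone and hypoxia lists had 1 higher each and the immediate early list had 2 higher. Of the 88 higher genes 10, and of the 58 lower genes 4, were also past 2-fold the same way in rods.

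Sex-linked transcripts differed between the libraries. *Xist*, which females express, had 60 UMIs in WT cones, 407 in *Tspan12* KO and 1 in the *Ctnnb1* cKO. Its difference from WT was 1.74 (1.36 to 2.17) in *Tspan12* KO cones and 1.59 in rods. In *Ctnnb1* cKO it was -2.64 in cones and 0.33 in rods, and the 4 Y-linked genes counted had no UMI in *Ctnnb1* cKO cones. With few cones per library and 5 mice per pool, how many mice gave the cones is unknown, and sex and genotype cannot be told apart.

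Between cones labelled *Ctnnb1* cKO and WT only 769 genes had at least 50 UMIs. Of these, 74 were 2-fold or more higher (9.62%) and 190 were 2-fold or more lower (24.7%), around a median of -0.20. The split depends on the scaling. With TMM factors the median moved by -0.43 and 33 genes were higher and 286 lower. These values describe 7 cells, and each difference below rests on the UMIs given.

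Of the 10 highest genes, 6 encode ribosomal proteins and 3 respiratory proteins. *Rpl35* stood at 1846 CPM in *Ctnnb1* cKO cones (42 UMIs) and 200.5 in WT (40 UMIs), a difference of 3.17 (2.54 to 3.86). *Rps29* was higher by 3.11, *Rpl37* by 2.79, *Rps28* by 2.67, *Rpl38* by 2.56 and *Rps27* by 2.15. In rods the same 6 genes were higher by 3.08, 3.20, 2.70, 2.97, 2.68 and 2.80. *Atp5md*, *Uqcr10* and *Cox6c*, small subunits of the respiratory chain and ATP synthase, were higher by 2.42, 2.31 and 2.12, and by 1.62, 1.71 and 1.56 in rods. *Hmgb2* was the exception of the 10, with 2.30 in cones and 0.76 in rods, and 81.6% of its *Ctnnb1* cKO UMIs lay in 1 cell. Of the 74 higher genes 47 were also past 2-fold in rods.

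Transcripts of the mitochondrial genome were lower. All 10 measured genes were past 2-fold, with a median of -2.64 and a range from -3.62 to -1.42. In rods their median was -1.53, and the median mitochondrial share of the cones was 0.273% in the *Ctnnb1* cKO against 4.39% in WT and 2.18% in *Tspan12* KO. The nuclear respiratory list did not follow, with 5 of 17 higher, 1 lower and a median of 0.42, and with 3 higher and 1 lower without the deepest WT cone. Over all measured genes 9.62% were higher and 24.7% lower.

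The 10 lowest genes had no UMI in the 7 *Ctnnb1* cKO cones. *Rp1*, a protein of the photoreceptor axoneme, had 75 UMIs in 16 WT cones, 37 of them in the deepest. Its WT level stood 2.85-fold above the floor of 3 counts per library (132 CPM). The interval of its count ratio, which adds the counting error of WT, ended at -1.18 (log2), and it differed by -1.22 in rods. *Elovl6*, a fatty acid elongase, had 54 UMIs in 12 WT cones, 19 of them in the deepest. Its WT level stood 2.05-fold above the floor, with an interval that ended at -0.69, and it differed by 0.08 in rods. For *Kcnip4*, *Zfp804b*, *Grik1*, *Nyap2*, *Cntnap5a*, *Car10*, *Zfhx3* and *Inpp4b* the deepest WT cone held over 50% of the WT UMIs, and no fold is given for them.

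Among cone genes *Gngt2* was higher, at 3955 CPM (90 UMIs) against 1724 (344 UMIs), a difference of 1.2 (0.85 to 1.54) that was 0.20 in rods and 0.83 without the deepest WT cone. *Pde6h* was at -1.65 (-2.48 to -0.94), with 16 and 443 UMIs, although 3 of 7 cones held all 16 and the mean over cells gave -0.86. *Cngb3* was at 264 CPM (6 UMIs) against 1043 (208 UMIs), a difference of -1.96 (-3.45 to -0.84), and at -1.20 in rods. *Opn1sw* was at -0.97 (-1.75 to -0.29). *Arr3* at 1.05 (-0.03 to 2.04), *Thrb* at 0.04 (-0.87 to 0.85) and *Guca1a* at -0.92 (-2.28 to 0.16) had intervals that include 0.

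The list counts here stand beside 9.62% higher and 24.7% lower of all 769 measured genes. In lists this short, the distance from those shares was not tested. Of 9 measured fate factors 1 was higher, *Neurod1*, at 1.02 (0.51 to 1.5), and 5 were lower, *Otx2*, *Crx*, *Rora*, *Samd7* and *Meis2*. *Otx2* rested on 10 UMIs in the *Ctnnb1* cKO (-1.08, -2.17 to -0.17) and *Crx* on 4 (-1.15, -3.08 to 0.24). Of 10 ribbon synapse genes 5 were lower, among them *Pclo* (-1.61) and *Snap25* (-1.11), which stood at -1.11 and -1.39 in rods. Without the deepest WT cone 0 fate factors were higher and 4 were lower, with *Neurod1* at 0.71 and *Otx2* at -0.88, and 3 ribbon synapse genes were lower. Lactate dehydrogenase A (*Ldha*), of the glycolysis list, had 51 UMIs against 142 and was higher by 1.65 (1.16 to 2.13), and it differed by 0.50 in rods. Of the 190 lower genes 48 were also past 2-fold in rods. The *Tspan12* KO and *Ctnnb1* cKO comparisons share the WT cones, so genes that stand the same way in both are not 2 observations.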

How the data were processed

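The deposited matrices hold UMI counts per gene and barcode, made by the authors with Cell Ranger and not normalized. The file headers name version 8.0.1 and the submitters' processing notes name build GRCm39, while the study's methods name another version and mm10, so no gene coordinates were taken from the files. The lowest barcode held 500 UMIs. The filter (1000 UMIs or more, mitochondrial share 15% or less) left 29084 of 33528 barcodes, and the libraries held 92684519 (WT), 137114957 (*Tspan12* KO) and 37008362 (*Ctnnb1* cKO) UMIs.

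For each class and library the cells' counts were added up and given as CPM with exact Poisson intervals. Shares have Clopper-Pearson intervals and ratios conditional binomial intervals. Differences are log2 of CPM plus 5, over genes with at least 50 UMIs, and a gene was counted at 2-fold. Rod values beside a knockout comparison, and all intervals of differences, are log2 ratios of CPM without the added 5. Counts of genes also past 2-fold in rods use these rod values. No p-value was computed, because each genotype has 1 library. Named genes are members of the gene lists, the 10 highest and 10 lowest of each knockout comparison and the 15 highest and 15 lowest of cones against rods. The members, lists and motif were chosen with earlier results of these data known.

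Doublets were not removed in the values given. Scrublet (scanpy 1.11.5) called 0, 0 and 323 cells by its own threshold, so the highest scores, at 0.8% per 1000 cells, were removed as an alternative (760, 1656 and 665 cells). The summing and counting steps were tested on simulated data. Python 3.11.15, numpy 2.4.6, scipy 1.17.1, pandas 2.3.3, and edgeR 4.0.16 in R 4.3.3 for TMM factors were used. Alternatives changed the gate limits, the minimum count, the pseudocount, the scaling, sums against means over cells and the cells that entered. Some were chosen after seeing the data (cones under 10000 UMIs, cones with gate genes at 30 per 10000 or more, without the deepest WT cone, the WT and *Tspan12* KO libraries alone, means over cells for cones against rods and a minimum of 50 cone UMIs). Some genes of the lists are not reported here.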

Additional observations from a re-analysis of the deposited data

Results flagged for a closer look

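A pair of genes stood on opposite sides in cones and in rods of the same 2 libraries, past 2-fold in each. The difference between the cell classes was not tested. *Kcnip4* differed between *Tspan12* KO and WT by -2.73 in cones and by 1.13 in rods, and the WT cone value came from 1 cell. *Sall3* differed by -1.86 in cones and by 1.01 in rods, with 44 WT UMIs in 15 cones, 20 of them in the deepest WT cone, and it stood at -1.54 without that cell.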

How the results depend on the processing

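No paired analysis was possible because each genotype has 1 library, and for the same reason none could be left out. The limits of the gate decided how many cells were cones. With *Nrl* and *Nr2e3* both at 0, the share was 0.0853% in WT and 0.242% in *Tspan12* KO, or 0.218 and 0.521 per 100 rods. With gate genes at 16 per 10000 and 3 of 5 detected, it was 0.259%, or 0.558 per 100 rods, in *Tspan12* KO. With the gate run on cells thinned to 1000 UMIs it was 0.699% in *Tspan12* KO, with 1.04 per 100 rods in WT and 2.75 in *Tspan12* KO. The *Opn1sw* share of *Tspan12* KO was 86.5% without thinning.

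The counts of genes past 2-fold moved by over 1.5 times in many settings. For *Tspan12* KO against WT (146 genes) they were 89 with the stricter gate, 29 with *Nrl* and *Nr2e3* at 0, 350 by means over cells, 562 and 3449 with minimums of 20 and 1 UMIs, 43 in cones under 10000 UMIs, 15 in such cones with gate genes at 30 per 10000 or more, and 231 without the deepest WT cone (181 higher and 50 lower). For *Ctnnb1* cKO against WT (264 genes) they were 119 without top doublet scores, 33 with the rod factors at 0, 1049 and 9471 with the lower minimums, 80 and 55 in the shallower cones, and 145 without the deepest WT cone. For cones against rods (160 genes) they were 262 without top doublet scores, 1922 with the rod factors at 0, 793 with a pseudocount of 1, 296 in WT and *Tspan12* KO alone, 405 by means over cells, 642 in cones under 10000 UMIs and 47 with at least 50 cone UMIs. TMM gave 51 higher and 131 lower genes there.

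Some named genes changed sign between *Tspan12* KO and WT. Without top doublet scores *Grik1* stood at 1.12, *Zfp804b* at 4.79, *Cntnap5a* at 1.88, *Kcnip4* at 5.86, *Nyap2* at 1.64 and *Cacna2d1* at 0.52. With the rod factors at 0, *H2ax* stood at -0.31, *Ccnd1* at -0.32, *Zfp804b*, *Cntnap5a* and *Nyap2* at 2.12 each, *Kcnip4* at 7.33, *Cacna2d1* at 0.39, *Grm8* at 0.56 and, in *Ctnnb1* cKO, *Hmgb2* at -0.22. The stricter gate gave *Gria4* at -0.14, and means over cells gave *Kcnip4* at 0.87. Without the deepest WT cone *Grik1* and *Cntnap5a* stood at 1.27, *Kcnip4* at 5.50 and *Nyap2* at 1.83. Under 10000 UMIs *Zfp804b* stood at 2.82, *Kcnip4* at 6.35, *Nyap2* at 1.33 and *Cacna2d1* at 0.41. With gate genes at 30 or more as well, *Top2a* stood at -2.51 on 1 WT UMI against 0, *H2ax* at -0.18, *Zfp804b* at 1.79 and *Kcnip4* at 6.28. Of 704 values of named genes under the alternatives, 521 stayed within the 95% counting interval, 154 moved out of it and 29 changed sign. The values of *Kcnip4* without its 1 WT cell are against a WT count of 0, depend on the pseudocount and give no fold. The cause was not tested beyond the cells each setting removes. With 199502, 401752 and 22755 cone UMIs, a gene at 1 UMI is below what these sums can compare.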
